A study of Mus musculus with 3 samples.

Results

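The interferon-stimulated genes followed here are a list of 43 mouse genes, antiviral or otherwise known to be induced by interferon, out of 41214 gene identifiers in the deposited tables. They were measured by RNA sequencing in 3 libraries of mouse keratinocytes, the epithelial cells of the epidermis, with 1 library per genotype. The first library was labelled ARPC4 ko, a knockout of a subunit of the Arp2/3 complex that nucleates branched actin, and its title also carries the word Cre. The second was labelled Nrf2-EGFP, read here as a fusion of the antioxidant transcription factor Nrf2 (gene Nfe2l2) with a green fluorescent protein. Its title carries the word High. The third was labelled wt. Every group was of strain C57BL/6, was immortalised with SV40, was harvested during exponential growth and received no treatment according to the labels. The sources used here do not say how the deletion was made, what drives the fusion, whether a culture was a clone, or the age and number of animals.

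Interferons are secreted signals of infection. They bind receptors on the cell surface, and the receptor-bound kinases JAK1 and TYK2 then activate transcription factors such as STAT2, which joins IRF9 in a complex that binds a DNA element called the interferon-stimulated response element (ISRE) in front of many antiviral genes. Interferon gamma acts mostly through a different element, the gamma-activated site (GAS). Keratinocytes make interferons themselves, and skin affected by psoriasis is known for raised interferon-stimulated genes.

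The libraries held 23033863 gene counts in ARPC4 ko, 25723959 in Nrf2-EGFP and 22924294 in wt. Levels are given as CPM, that is counts scaled to a common library size after TMM scaling between libraries, and a gene was measured if it reached 1 CPM in at least 1 library, which 11865 genes did. Each genotype has 1 library, so differences lack any replicate check and carry no p-value, and ranges in parentheses are 95% counting intervals of a ratio. These intervals compare libraries, not genotypes. "Higher" or "lower" is used of a gene whose log2 fold, taken on CPM + 0.5, was at least 1 in size and whose interval excluded 1. Arpc4 itself had 61.0 CPM in ARPC4 ko, 98.4 in Nrf2-EGFP and 94.2 in wt. Its ratio in ARPC4 ko over wt was 0.648 (0.606 to 0.692), a log2 fold of -0.62, so it did not count as lower. Nfe2l2 had 179.5 CPM in ARPC4 ko, 166.4 in Nrf2-EGFP and 224.7 in wt, so it was not above wt in Nrf2-EGFP. The sources used here do not say whether reads of the fusion would be counted there. Of 12 keratinocyte markers 11 reached 1 CPM in every library, and Krt15 had 0, 0 and 2 counts in ARPC4 ko, Nrf2-EGFP and wt.

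Of the 43 genes 33 were measured and 10 were low, meaning under 1 CPM in every library. The low genes were Zbp1, Oas2, Oasl1, Ifit3, Mx1, Mx2, Cmpk2, Sp100, Ifi44 and Lgals3bp. The 43 genes summed to 1029 CPM in ARPC4 ko, 811 CPM in Nrf2-EGFP and 538 CPM in wt. Ifitm3 alone made up 32.6% of that sum in ARPC4 ko, 34.4% in Nrf2-EGFP and 18.0% in wt. Without Ifitm3 the sums were 693 CPM in ARPC4 ko, 532 CPM in Nrf2-EGFP and 441 CPM in wt, in the same order. In bulk RNA, fewer cells of a type and less RNA per cell cannot be told apart. Per length, the median level of the measured genes was 4.06 RPKM (the scaled level divided by exon length) in ARPC4 ko, 2.44 RPKM in Nrf2-EGFP and 1.44 RPKM in wt. The most abundant gene per length was Ifitm3, at 495 RPKM in ARPC4 ko, 411 RPKM in Nrf2-EGFP and 143 RPKM in wt, whereas Rsad2 stood at 0.550, 0.548 and 0.144 RPKM in ARPC4 ko, Nrf2-EGFP and wt.

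**Figure D1:**
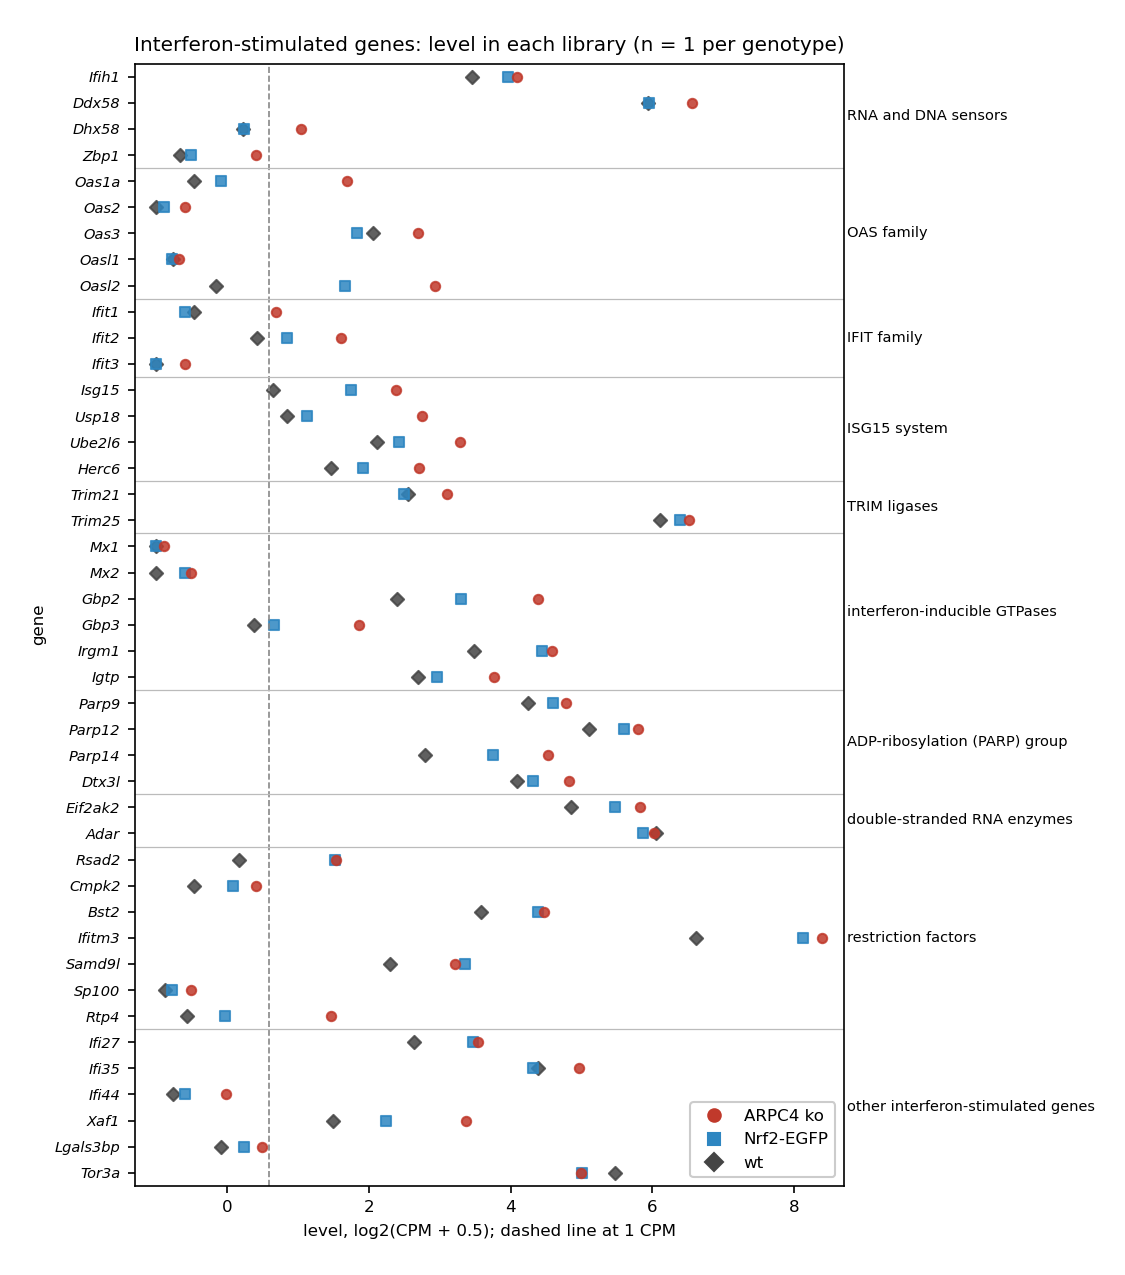
Level of each of the 43 interferon-stimulated genes in each library, as log2(CPM + 0.5) on the horizontal axis, with genes grouped by role from top to bottom and 1 point per library (circles ARPC4 ko, squares Nrf2-EGFP, diamonds wt). The dashed line marks 1 CPM, which the 10 low genes do not reach, and for 26 of the 33 measured genes the points run in the order ARPC4 ko, Nrf2-EGFP, wt from high to low.

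The promoters of these genes are shown because the ISRE is the sequence that the family is known to share. RefSeq promoter windows (GRCm38.p6, the mm10 assembly), 250 bases before to 50 bases after a gene's start, were found for 32 of the 43 genes. Zbp1, Usp18, Dhx58, Mx1, Mx2, Tor3a, Parp14, Parp9, Oas2, Rtp4 and Ifi27 were not matched. The ISRE core searched for was GAAANNGAAA, or TTTCNNTTTC when read on the other strand, and copies may overlap. It was present in 16 of the 32 promoters (50%), and in 1079 of 27025 genes (3.99%) with a window of the same length. Printed below are the 4 core-holding promoters of the genes with the largest log2 folds in ARPC4 ko over wt, and that of Adar, the measured gene whose log2 fold there was nearest 0. Each reads 5′ to 3′ along the gene's own strand, with ISRE cores in capitals. Their places are Oas1a chr5:120907476-120907775 (minus strand), Gbp2 chr3:142620413-142620712 (plus), Ifitm3 chr7:141010695-141010994 (minus), Isg15 chr4:156200769-156201068 (minus) and Adar chr3:89714772-89715071 (plus).
Oas1a: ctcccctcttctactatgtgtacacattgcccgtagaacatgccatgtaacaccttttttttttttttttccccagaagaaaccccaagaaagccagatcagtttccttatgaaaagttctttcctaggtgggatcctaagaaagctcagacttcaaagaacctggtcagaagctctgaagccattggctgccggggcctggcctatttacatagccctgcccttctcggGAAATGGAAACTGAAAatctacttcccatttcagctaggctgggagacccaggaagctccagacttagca
Gbp2: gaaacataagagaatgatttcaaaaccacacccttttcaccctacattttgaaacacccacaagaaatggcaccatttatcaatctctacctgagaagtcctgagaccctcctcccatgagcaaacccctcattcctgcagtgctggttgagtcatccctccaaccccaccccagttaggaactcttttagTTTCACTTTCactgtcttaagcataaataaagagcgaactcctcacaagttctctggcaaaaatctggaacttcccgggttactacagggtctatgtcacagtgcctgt
Ifitm3: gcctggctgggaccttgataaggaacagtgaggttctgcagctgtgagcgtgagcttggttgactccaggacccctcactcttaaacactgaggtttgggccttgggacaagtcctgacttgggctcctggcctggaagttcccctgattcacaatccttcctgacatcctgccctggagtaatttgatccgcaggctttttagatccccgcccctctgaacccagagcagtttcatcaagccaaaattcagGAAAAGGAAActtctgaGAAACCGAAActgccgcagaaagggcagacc
Isg15: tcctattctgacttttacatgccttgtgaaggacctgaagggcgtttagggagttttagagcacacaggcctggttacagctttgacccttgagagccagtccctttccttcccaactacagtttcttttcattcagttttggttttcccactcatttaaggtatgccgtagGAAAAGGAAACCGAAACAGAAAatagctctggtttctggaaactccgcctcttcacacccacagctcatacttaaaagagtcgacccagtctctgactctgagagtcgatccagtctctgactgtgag
Adar: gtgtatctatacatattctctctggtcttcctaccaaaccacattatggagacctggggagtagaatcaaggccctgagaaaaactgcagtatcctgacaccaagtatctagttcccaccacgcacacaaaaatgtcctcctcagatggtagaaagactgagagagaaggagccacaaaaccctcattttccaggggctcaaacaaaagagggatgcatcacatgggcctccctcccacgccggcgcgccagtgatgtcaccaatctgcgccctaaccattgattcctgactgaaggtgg
Oas1a holds 2 overlapping cores, the first beginning 20 bases before the start, and Isg15 holds 3 overlapping cores beginning 78, 72 and 66 bases before it. Gbp2 holds 1 core on the opposite strand, 59 bases before the start, and the 2 cores of Ifitm3 lie just after it. Adar has 3 windows in the table, of which the most upstream is printed, and none of them holds the core.

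A longer form of the element, GAAANNGAAACT, was in 9 of the 32 promoters (28.1%) and in 0.303% of all genes. The GAS letters TTCNNNGAA were in 8 (25%), against 9.55% of all genes. The antioxidant response element that Nrf2 binds, searched for as TGACNNNGC, was in 5 promoters (15.6%), against 14.0% of all genes. These 5 were Oasl2, Herc6, Igtp, Rsad2 and the low gene Ifi44. Of the measured genes with a window 11 lacked the ISRE core in it, namely Oasl2, Ifit2, Ube2l6, Herc6, Trim25, Parp12, Dtx3l, Adar, Samd9l, Ifi35 and Xaf1. A match is a description of letters and not of a bound site.

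Compared with wt, the ARPC4 ko library had higher levels of genes from most branches of the antiviral response. Of the 33 measured genes 17 were higher and 0 were lower, whereas 4.7% of all measured genes were higher and 2.06% were lower. Their median log2 fold was 1.07, and that of all measured genes was -0.01. Because 7 of the 17 were under 1 CPM in wt and 4 measured genes reached 1 CPM in ARPC4 ko alone, the same was counted over all 43 genes. There 18 passed (Zbp1 was added), against 3.06% of all genes with any count, 41 had a log2 fold above 0 and the median was 0.90. With a filter on the mean of the 3 libraries 15 of 30 genes were higher, against 4.38% of all genes kept by it. By level, 4 of the 15 genes at a mean of 10 CPM or more were higher, against 2.26% of all genes at that level, as were 13 of the 18 measured genes under it, against 12.4% of all such genes. With a pseudocount of 2 CPM in place of 0.5, which weighs genes with few counts less, 9 of the 33 remained past the rule. Of all measured genes 2.62% were then higher.

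**Figure D2:**
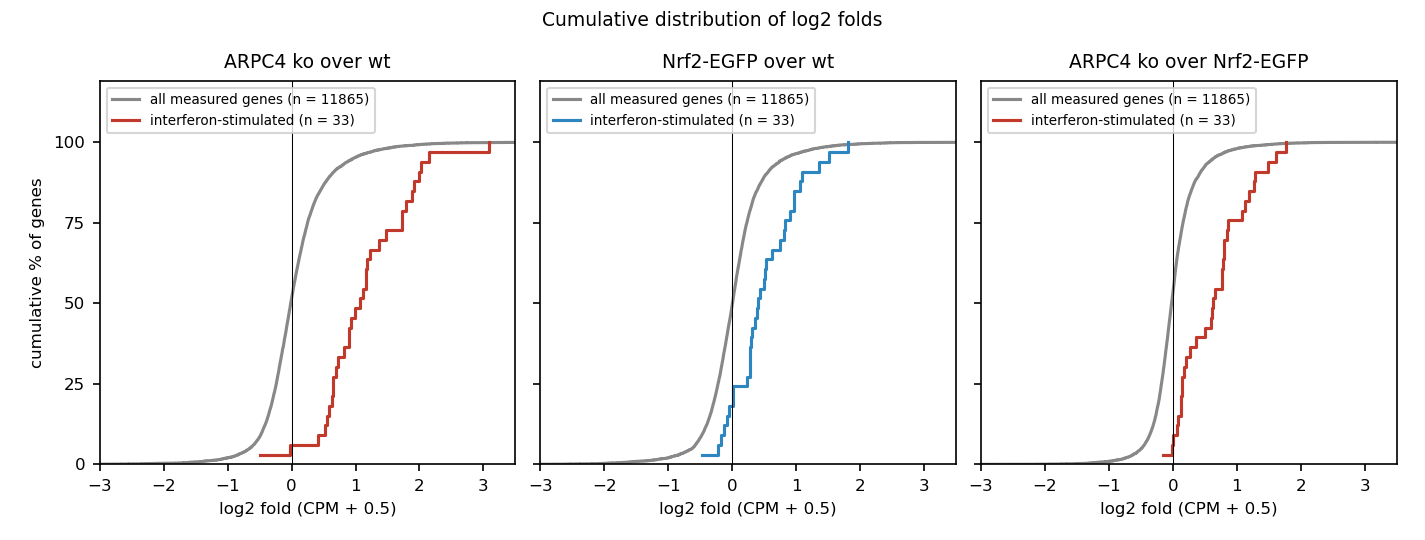
Cumulative percentage of genes (vertical axis) by log2 fold of CPM + 0.5 (horizontal axis) for the 33 measured interferon-stimulated genes (coloured steps) and all 11865 measured genes (grey), in 1 panel per pair of libraries. Over most of its length the coloured curve lies to the right of the grey one in each panel, with medians of 1.07 against -0.01 in ARPC4 ko over wt, 0.41 against 0.00 in Nrf2-EGFP over wt and 0.63 against -0.02 in ARPC4 ko over Nrf2-EGFP.

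In the Nrf2-EGFP library most members lay between wt and ARPC4 ko. There 5 of the 33 measured genes were higher than in wt (Oasl2, Isg15, Rsad2, Ifitm3 and Samd9l) and 0 were lower, against 3.57% and 2.05% of all measured genes. The median log2 fold was 0.41, with 27 genes above 0, and over all 43 genes it was 0.33. Both comparisons use the same wt library, so an unusual wt value would enter each of them. The comparison of ARPC4 ko with Nrf2-EGFP, which leaves wt out, had 8 higher genes (Oas1a, Oasl2, Ifit1, Usp18, Gbp2, Gbp3, Rtp4 and Xaf1) and 0 lower, against 2.01% and 0.961% of all measured genes. Its median log2 fold was 0.63, with 31 of 33 genes above 0. Among the 15 genes at a mean of 10 CPM or more 1 was higher and the median was 0.20, and among the 18 measured genes under it 7 were higher and the median was 0.83. Of all genes at those levels 0.321% and 7.38% were higher, with medians of -0.04 and 0.16. With the pseudocount of 2 CPM 1 gene remained past the rule in Nrf2-EGFP over wt (Ifitm3) and 1 in ARPC4 ko over Nrf2-EGFP (Usp18). Of all measured genes 2.17% and 0.674% were then higher.

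**Figure D3:**
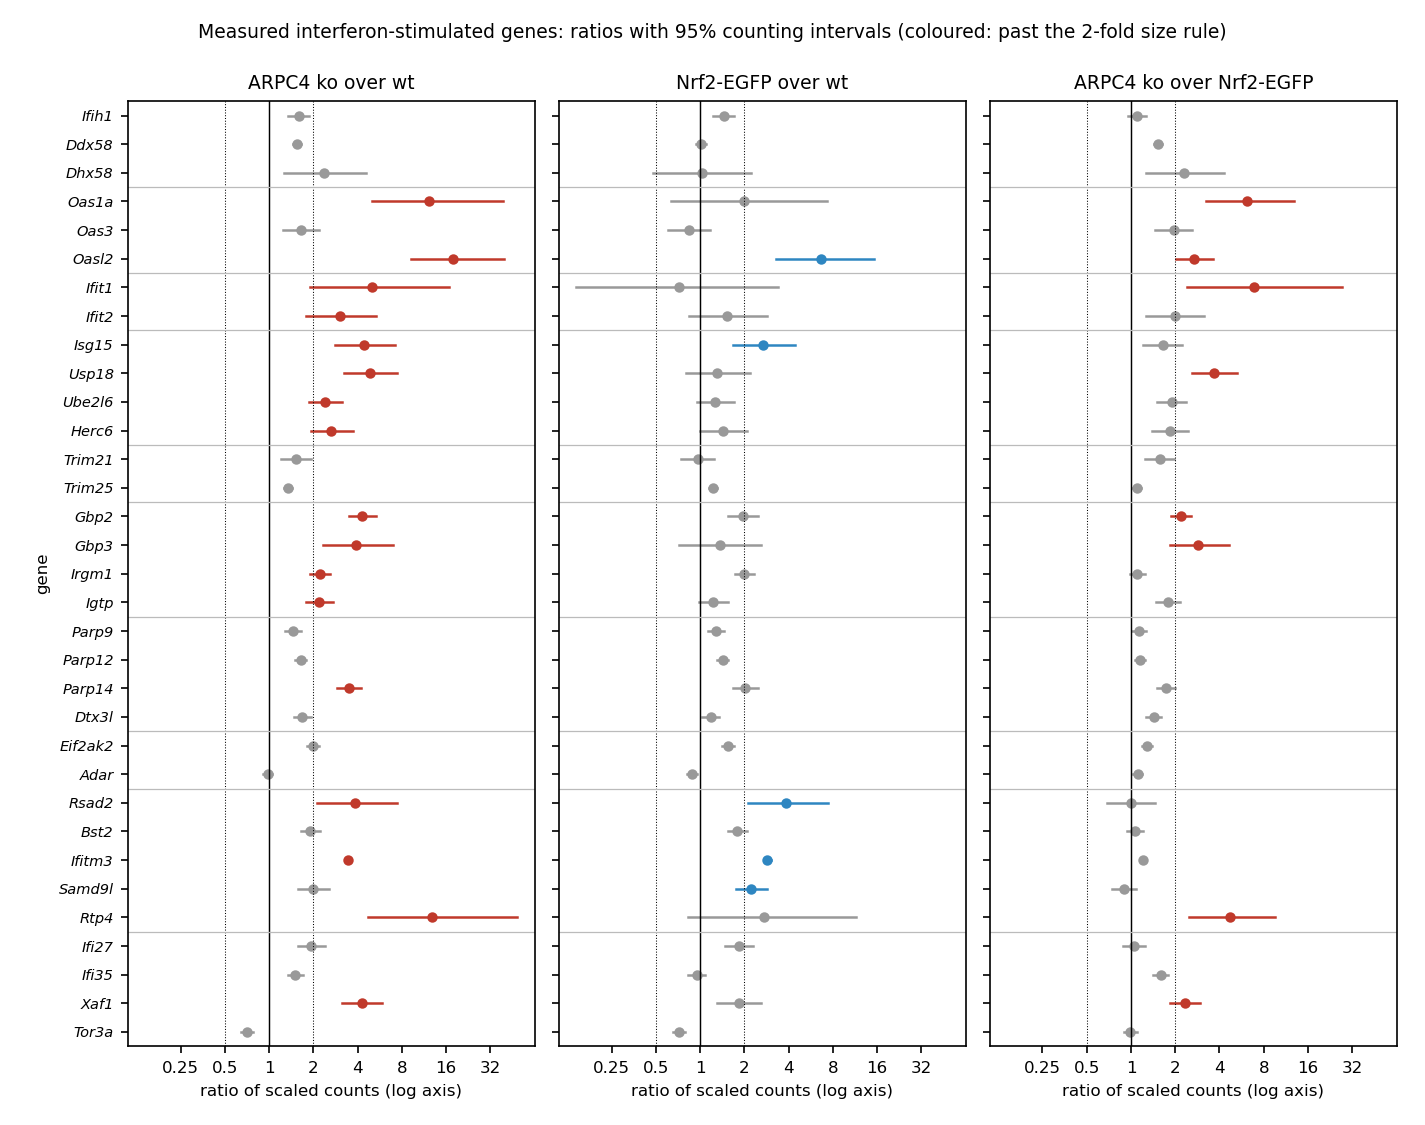
Ratio of scaled counts (horizontal log axis) for each of the 33 measured genes, with its 95% counting interval, in ARPC4 ko over wt, Nrf2-EGFP over wt and ARPC4 ko over Nrf2-EGFP. Coloured points are past the 2-fold size rule (17, 5 and 8 genes from left to right), the solid line marks a ratio of 1 and the dotted lines mark 2-fold differences.

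Among the sensors of foreign nucleic acid none of the measured genes was past the size rule. Ddx58, which encodes RIG-I, had 94.2 CPM in ARPC4 ko, 61.6 in Nrf2-EGFP and 60.9 in wt, a ratio of 1.55 (1.45 to 1.65) in ARPC4 ko over wt. Ifih1, which encodes the long double-stranded RNA sensor MDA5, had 16.6 CPM in ARPC4 ko, 15.1 in Nrf2-EGFP and 10.4 in wt. Dhx58, which encodes the regulatory helicase LGP2, had 38 counts in ARPC4 ko, 17 in Nrf2-EGFP and 15 in wt. For Ddx58 and Dhx58 ARPC4 ko thus stood apart while Nrf2-EGFP and wt were close, whereas for Ifih1 both ARPC4 ko and Nrf2-EGFP were above wt. Zbp1, a low gene that encodes a sensor of Z-form nucleic acids, had 20 counts in ARPC4 ko, 5 in Nrf2-EGFP and 3 in wt.

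The oligoadenylate synthetases, which make the messenger that activates RNase L, held the gene with the largest ratio of all members. Oasl2 (ENSMUSG00000029561, chromosome 5, 114896936 to 114912234 in mm10), a synthetase-like protein with ubiquitin-like domains, had 174 counts (7.16 CPM) in ARPC4 ko, 66 counts (2.66 CPM) in Nrf2-EGFP and 9 counts (0.400 CPM) in wt. It was 17.9-fold higher in ARPC4 ko (9.21 to 39.8) and 6.64-fold higher in Nrf2-EGFP (3.29 to 15.1) than in wt, and ARPC4 ko exceeded Nrf2-EGFP 2.69-fold (2.02 to 3.63). It is the only member past the rule in all 3 comparisons, and its promoter window holds no ISRE core. Oas1a had 66 counts (2.72 CPM) in ARPC4 ko, 11 counts (0.443 CPM) in Nrf2-EGFP and 5 counts (0.222 CPM) in wt. It was 12.2-fold higher in ARPC4 ko than in wt (4.98 to 38.8) and 6.13-fold higher than in Nrf2-EGFP (3.21 to 12.9), whereas the Nrf2-EGFP over wt ratio of 1.99 had an interval that includes 1 (0.638 to 7.31). Oas3 stood at 5.96 CPM in ARPC4 ko, 3.06 in Nrf2-EGFP and 3.65 in wt. Oas2 and Oasl1 had at most 4 counts in any library. Oas1a has near-identical copies, so its counts are uncertain.

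The IFIT genes, whose proteins bind viral RNA and block its translation, were few in counts. Ifit2 had 62 counts (2.55 CPM) in ARPC4 ko, 32 counts (1.29 CPM) in Nrf2-EGFP and 19 counts (0.845 CPM) in wt, 3.02-fold higher in ARPC4 ko than in wt (1.78 to 5.35). Ifit1 had 27 counts in ARPC4 ko, 4 in Nrf2-EGFP and 5 in wt, so ARPC4 ko stood alone. Its ratio was 5.00 over wt (1.90 to 16.6) and 6.90 over Nrf2-EGFP (2.40 to 27.1). Ifit3 had 4 counts in ARPC4 ko and 0 in the other libraries, where 0 counts allow up to 3, or 0.121 CPM in Nrf2-EGFP and 0.133 CPM in wt. Ifit2, Ifit3 and Ifit1 are neighbours on chromosome 19, and reads shared by such paralogs may be lost or split.

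The 4 genes of the ISG15 system were all measured and all higher in ARPC4 ko than in wt. Isg15, a ubiquitin-like protein that is coupled to other proteins, had 4.69 CPM in ARPC4 ko, 2.86 in Nrf2-EGFP and 1.07 in wt. It was 4.39-fold higher in ARPC4 ko (2.81 to 7.14) and 2.68-fold higher in Nrf2-EGFP (1.66 to 4.45). Usp18, which removes ISG15 and restrains the type I interferon receptor, had 6.21 CPM in ARPC4 ko, 1.69 in Nrf2-EGFP and 1.29 in wt. It was 4.82-fold higher in ARPC4 ko than in wt (3.22 to 7.44) and 3.67-fold higher than in Nrf2-EGFP (2.59 to 5.30), and Nrf2-EGFP stood near wt with a ratio of 1.31 (0.797 to 2.18). Ube2l6, the conjugating enzyme for ISG15, had 9.21 CPM in ARPC4 ko, 4.87 in Nrf2-EGFP and 3.82 in wt, 2.41-fold higher in ARPC4 ko (1.87 to 3.13). Herc6, the mouse ISG15 ligase, had 6.01 CPM in ARPC4 ko, 3.26 in Nrf2-EGFP and 2.27 in wt, 2.65-fold higher in ARPC4 ko (1.91 to 3.72). The modifier itself was thus past the rule in both comparisons with wt, and its enzymes in ARPC4 ko over wt. The ubiquitin ligases Trim25, which acts on RIG-I, and Trim21, a cytosolic antibody receptor, had ratios of 1.34 and 1.51 in ARPC4 ko over wt and were not past the rule.

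All 4 measured interferon-inducible GTPases, which act on membranes around intracellular pathogens, were higher in ARPC4 ko than in wt. Gbp2 (ENSMUSG00000028270), a guanylate-binding protein, had 496 counts (20.4 CPM) in ARPC4 ko, 232 counts (9.34 CPM) in Nrf2-EGFP and 107 counts (4.76 CPM) in wt. It was 4.29-fold higher in ARPC4 ko than in wt (3.47 to 5.34) and 2.19-fold higher than in Nrf2-EGFP (1.87 to 2.56), with Nrf2-EGFP in between at 1.96 times wt (1.55 to 2.49). Gbp3 had 3.13 CPM in ARPC4 ko, 1.09 in Nrf2-EGFP and 0.80 in wt, 3.91-fold higher in ARPC4 ko than in wt (2.31 to 6.94). The immunity-related GTPase Irgm1 showed another pattern, with 23.6 CPM in ARPC4 ko, 21.3 in Nrf2-EGFP and 10.6 in wt. Its ratio over wt was 2.22 in ARPC4 ko (1.90 to 2.59) and 2.0 in Nrf2-EGFP (1.72 to 2.34), where it was just short of the rule at a log2 fold of 0.97, and the ratio of ARPC4 ko to Nrf2-EGFP was 1.11 (0.982 to 1.25). Igtp had 13.1 CPM in ARPC4 ko, 7.32 in Nrf2-EGFP and 5.96 in wt, 2.19-fold higher in ARPC4 ko (1.79 to 2.71). Igtp shares 162 bases of exon with Irgm2 on the same strand, and Irgm2 had 131 counts in ARPC4 ko, 41 in Nrf2-EGFP and 38 in wt. Mx1 and Mx2, the dynamin-like GTPases against influenza and other viruses, had 1 and 5 counts in ARPC4 ko, 0 and 4 in Nrf2-EGFP and 0 each in wt.

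Within the ADP-ribosylation group 1 of 4 genes was past the rule. Parp14, an ADP-ribosyltransferase, had 22.5 CPM in ARPC4 ko, 13.0 in Nrf2-EGFP and 6.40 in wt. It was 3.51-fold higher in ARPC4 ko (2.91 to 4.24), and its ratio in Nrf2-EGFP was 2.03 (1.66 to 2.49) at a log2 fold of 0.97. Parp9, Parp12 and Dtx3l, the ubiquitin ligase that pairs with PARP9, had ratios between 1.45 and 1.68 in ARPC4 ko over wt and between 1.18 and 1.42 in Nrf2-EGFP over wt. Parp9 and Dtx3l overlap by 458 exon bases on opposite strands, and the sources used here do not state the strand setting of the counting. The enzymes acting on double-stranded RNA parted. Eif2ak2, which encodes the translation-halting kinase PKR, had 56.4 CPM in ARPC4 ko, 43.7 in Nrf2-EGFP and 28.2 in wt, and its ratio of 2.0 in ARPC4 ko (1.82 to 2.20) lay just outside the rule at a log2 fold of 0.99. Adar, the adenosine-to-inosine editing enzyme, had 64.3 CPM in ARPC4 ko, 57.9 in Nrf2-EGFP and 65.7 in wt. Its log2 fold in ARPC4 ko over wt was -0.03 and became 0.08 when libraries were scaled by total counts.

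The restriction factors held 3 of the 5 genes that were higher in Nrf2-EGFP than in wt. Ifitm3 (ENSMUSG00000025492, chromosome 7, 141009586 to 141010770), which blocks fusion of viruses in endosomes, had 8165 counts (335.9 CPM) in ARPC4 ko, 6926 counts (278.7 CPM) in Nrf2-EGFP and 2183 counts (97.1 CPM) in wt. It was 3.46-fold higher in ARPC4 ko (3.30 to 3.63) and 2.87-fold higher in Nrf2-EGFP (2.74 to 3.01) than in wt, and the ratio between ARPC4 ko and Nrf2-EGFP was 1.2 (1.17 to 1.24). Rsad2, which encodes viperin, an enzyme that makes a chain-terminating nucleotide, had 58 counts (2.39 CPM) in ARPC4 ko, 59 counts (2.37 CPM) in Nrf2-EGFP and 14 counts (0.623 CPM) in wt. It was 3.83-fold higher in ARPC4 ko (2.11 to 7.44) and 3.81-fold higher in Nrf2-EGFP (2.1 to 7.40). For Rsad2 the libraries ARPC4 ko and Nrf2-EGFP were level, with a ratio of 1.0 (0.687 to 1.47). Samd9l, an antiviral protein that restricts poxviruses, had 8.80 CPM in ARPC4 ko, 9.78 in Nrf2-EGFP and 4.40 in wt. It was 2.22-fold higher in Nrf2-EGFP (1.75 to 2.83), and with a log2 fold of 0.92 in ARPC4 ko it is the only member past the rule in Nrf2-EGFP and not in ARPC4 ko. The ratio of ARPC4 ko to Nrf2-EGFP was 0.900 (0.746 to 1.09), so counting error alone covers that difference. Bst2, which encodes tetherin, a protein that holds budding virions at the membrane, had 21.8 CPM in ARPC4 ko, 20.5 in Nrf2-EGFP and 11.4 in wt, ratios of 1.90 and 1.79 over wt.

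Rtp4, an interferon-induced chaperone of membrane receptors, followed the Oas1a pattern instead. It had 55 counts (2.26 CPM) in ARPC4 ko, 12 counts (0.483 CPM) in Nrf2-EGFP and 4 counts (0.178 CPM) in wt. It was 12.7-fold higher in ARPC4 ko than in wt (4.70 to 48.3) and 4.69-fold higher than in Nrf2-EGFP (2.48 to 9.61). Cmpk2, a nucleotide kinase gene whose start lies 12752 bases from that of Rsad2 on the opposite strand, was low, with 20 counts in ARPC4 ko, 14 in Nrf2-EGFP and 5 in wt. Together with Zbp1 it lay just under the 1 CPM limit at 0.823 CPM in ARPC4 ko, and Ifit1 lay just above it at 1.11 CPM. Sp100, which encodes a nuclear body protein, had at most 5 counts in any library.

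Of the remaining genes Xaf1, which encodes an antagonist of the apoptosis inhibitor XIAP, had 9.87 CPM in ARPC4 ko, 4.23 in Nrf2-EGFP and 2.31 in wt. It was 4.27-fold higher in ARPC4 ko than in wt (3.15 to 5.88) and 2.34-fold higher than in Nrf2-EGFP (1.85 to 2.97). Ifi27 had 11.1 CPM in ARPC4 ko, 10.6 in Nrf2-EGFP and 5.74 in wt, close in ARPC4 ko and Nrf2-EGFP like Bst2. Ifi35 had 30.7 CPM in ARPC4 ko, 19.3 in Nrf2-EGFP and 20.4 in wt, close in Nrf2-EGFP and wt like Ddx58. Tor3a, a torsin-family ATPase, went the other way. It had 31.2 CPM in ARPC4 ko, 31.6 in Nrf2-EGFP and 44.0 in wt, ratios of 0.710 (0.645 to 0.781) and 0.719 (0.654 to 0.791) that were not past the rule. The 10 low genes summed to 96 counts in ARPC4 ko, 49 in Nrf2-EGFP and 23 in wt, and each of them had more counts in ARPC4 ko than in wt.

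Set side by side, 4 members were past the rule in both comparisons with wt, 13 in ARPC4 ko over wt only and 1 in Nrf2-EGFP over wt only. That split does not show a difference between ARPC4 ko and Nrf2-EGFP. Their own comparison put 8 genes past the rule, also without a test. Of all measured genes 4.7% were higher in ARPC4 ko over wt, 3.57% in Nrf2-EGFP over wt and 2.01% in ARPC4 ko over Nrf2-EGFP. How many of all genes were higher in both comparisons with wt was not counted, and these share the wt library. Among the 15 measured genes with an ISRE core in the window 9 were higher in ARPC4 ko over wt, and their median log2 fold was 1.11. Among the 11 measured genes whose window lacks it 5 were higher, with a median of 0.92. In Nrf2-EGFP over wt 3 of the 15 and 2 of the 11 were higher, with medians of 0.51 and 0.41. In ARPC4 ko over Nrf2-EGFP 4 of the 15 and 2 of the 11 were higher, and here the median was 0.61 with the core and 0.66 without. Of the 8 measured genes with GAS letters 4 were higher in ARPC4 ko over wt (median 1.03), as were 10 of the 18 without (median 1.13). The antioxidant element letters were in 4 measured genes, which were all higher in ARPC4 ko over wt, against 10 of 22 without. In Nrf2-EGFP over wt 2 of these 4 were higher (median 0.90), against 3 of 22 without (median 0.40). That contrast rests on 4 genes, and the element was about as frequent in members (15.6%) as in all genes (14.0%). The splits by letters were made in members only and none was tested.

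The interferon genes themselves gave almost no reads. Of 21 interferon genes looked for, Ifnz had 1 count in ARPC4 ko and the other genes had 0, and 0 counts were found for all 21 in Nrf2-EGFP and in wt. With 0 counts up to 3 remain possible, or 0.123 CPM in ARPC4 ko, so lower levels could not be detected at this depth. Reads shared by similar genes, such as those of the interferon alpha family, may also be lost, which that limit does not cover. All 6 receptor genes were measured and 0 were past the rule. With 6 genes a count of 0 lies near the shares of all measured genes. These were 4.7% higher in ARPC4 ko over wt and 3.57% in Nrf2-EGFP over wt. The interval lay above 1 for 5 of the 6 in ARPC4 ko over wt, against 31.6% of all measured genes. In Nrf2-EGFP over wt it did for 2 of the 6, against 32.1%. Ifnar1, a chain of the type I receptor, had 59.4 CPM in ARPC4 ko, 64.7 in Nrf2-EGFP and 45.2 in wt, and its partner Ifnar2 had 13.4, 10.5 and 9.92 CPM in ARPC4 ko, Nrf2-EGFP and wt. The ratios of Ifngr1, Ifngr2, Ifnlr1 and Il10rb lay between 1.11 and 1.46 in ARPC4 ko over wt and between 0.958 and 1.28 in Nrf2-EGFP over wt.

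Of the signalling genes Jak1, Jak2, Tyk2, Stat2, Stat3 and Irf9, which act downstream of the receptors, only Irf9 was past the rule. The share of all measured genes past it as higher was 4.7% in ARPC4 ko over wt and 2.01% in ARPC4 ko over Nrf2-EGFP. Irf9, the DNA-binding partner of STAT2, had 483 counts (19.9 CPM) in ARPC4 ko, 235 counts (9.46 CPM) in Nrf2-EGFP and 203 counts (9.03 CPM) in wt. It was 2.20-fold higher in ARPC4 ko than in wt (1.86 to 2.61) and 2.1-fold higher than in Nrf2-EGFP (1.79 to 2.47), and Nrf2-EGFP and wt were close. Stat2 had 28.7 CPM in ARPC4 ko, 17.3 in Nrf2-EGFP and 24.5 in wt. Nrf2-EGFP was the lowest library for it, with a ratio over wt of 0.705 (0.620 to 0.801). Jak1, Jak2, Tyk2 and Stat3 had ratios between 0.873 and 1.08 over wt in both comparisons.

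**Figure D4:**
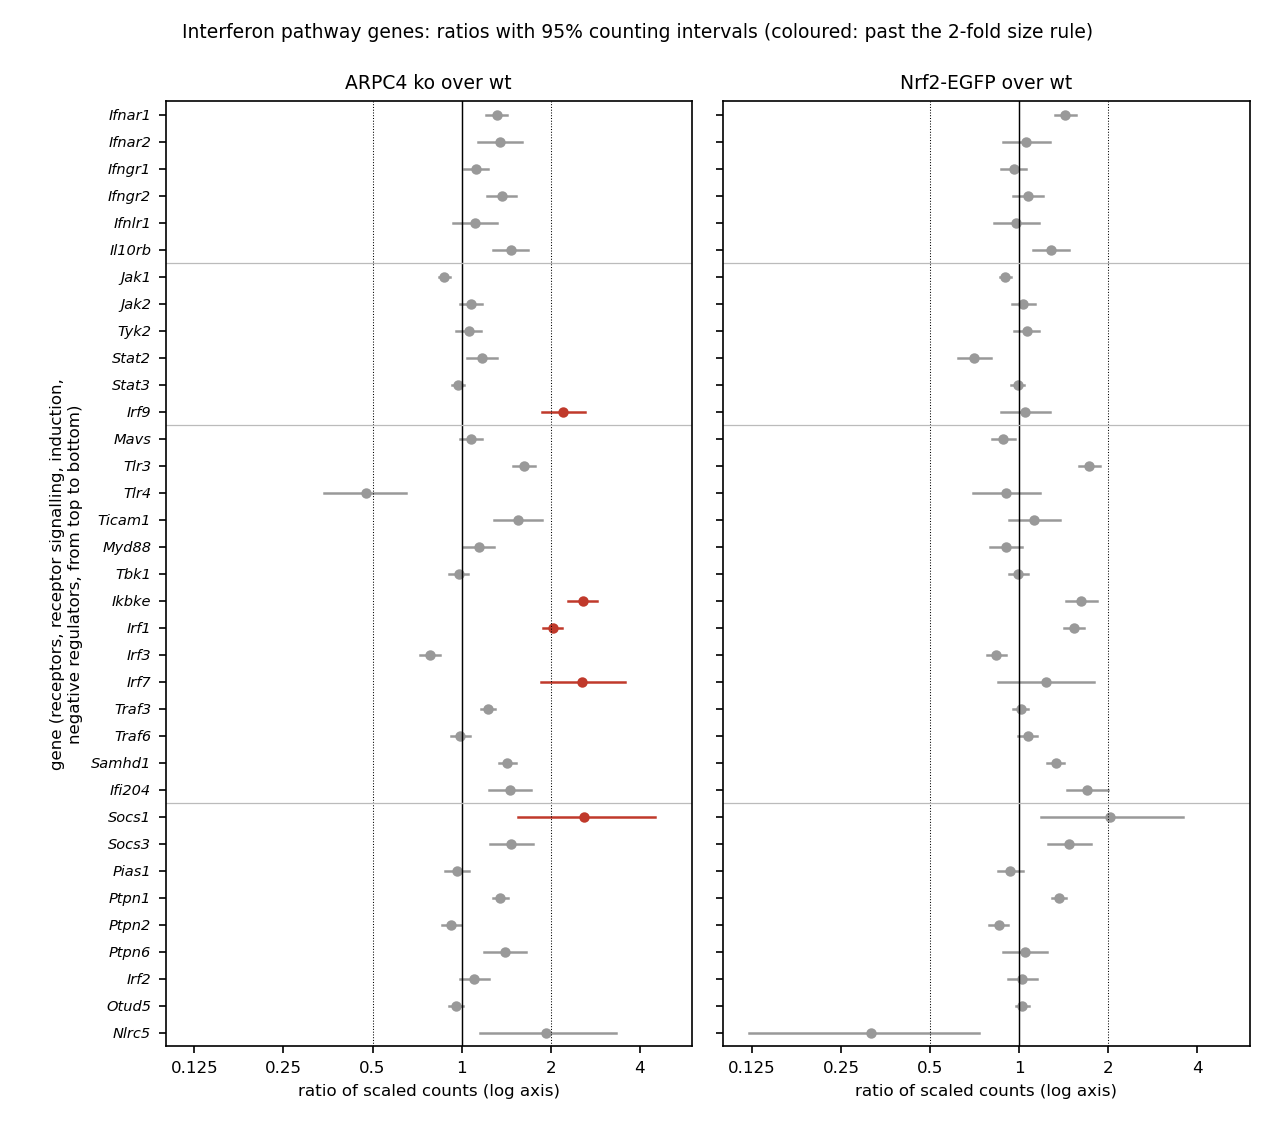
Ratio of scaled counts over wt (horizontal log axis) with its 95% counting interval for measured receptors, signalling genes, inducers of interferon and negative regulators, in ARPC4 ko (left) and Nrf2-EGFP (right). Coloured points are past the 2-fold rule, which Irf9, Ikbke, Irf1, Irf7 and Socs1 pass in ARPC4 ko and none of these genes passes in Nrf2-EGFP.

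Among genes that induce interferon or amplify the response 3 of 14 measured were higher in ARPC4 ko over wt and 0 of 14 in Nrf2-EGFP over wt. Of all measured genes 4.7% and 3.57% were higher there, and with 14 genes a count of 0 lies near that second share. Ikbke, a kinase that activates IRF3 and IRF7, had 47.8 CPM in ARPC4 ko, 30.2 in Nrf2-EGFP and 18.6 in wt, 2.56-fold higher in ARPC4 ko (2.29 to 2.87). Irf7, itself induced by interferon, had 6.01 CPM in ARPC4 ko, 2.90 in Nrf2-EGFP and 2.36 in wt, 2.55-fold higher in ARPC4 ko (1.85 to 3.56). Irf1 had 93.7 CPM in ARPC4 ko, 70.5 in Nrf2-EGFP and 46.1 in wt, 2.03-fold higher in ARPC4 ko (1.89 to 2.19). All 3 were in the order ARPC4 ko, Nrf2-EGFP, wt. Tlr4, a receptor for bacterial lipopolysaccharide, ran the other way, with 2.51 CPM in ARPC4 ko, 4.79 in Nrf2-EGFP and 5.29 in wt. Tlr3, a receptor for double-stranded RNA, had 61.3 CPM in ARPC4 ko, 65.2 in Nrf2-EGFP and 37.8 in wt. Of 9 negative regulators Socs1, an inhibitor of JAK kinases, was 2.60-fold higher in ARPC4 ko than in wt (1.56 to 4.50), with 59 counts in ARPC4 ko, 47 in Nrf2-EGFP and 21 in wt. Nlrc5 had 48 counts in ARPC4 ko, 8 in Nrf2-EGFP and 23 in wt, so ARPC4 ko exceeded Nrf2-EGFP 6.13-fold (2.88 to 15.0).

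A further list of 48 interferon-stimulated genes outside the 43 and the pathway lists gave 30 measured genes. Of these 13 were higher and 0 lower in ARPC4 ko than in wt (median log2 fold 0.74), and 3 were higher and 0 lower in Nrf2-EGFP than in wt (median 0.24). ARPC4 ko over Nrf2-EGFP gave 6 higher and 0 lower (median 0.34). Of all measured genes 4.7%, 3.57% and 2.01% were higher in these comparisons in turn, with medians of -0.01, 0.00 and -0.02. The list was chosen with earlier results of these data known, so it is not independent of them. Gbp9, a guanylate-binding protein, had 80 counts in ARPC4 ko, 20 in Nrf2-EGFP and 5 in wt, 14.8-fold higher in ARPC4 ko than in wt (6.08 to 46.8). Psmb8, a subunit of the immunoproteasome, had 8.27 CPM in ARPC4 ko, 7.20 in Nrf2-EGFP and 1.42 in wt. It was 5.81-fold higher in ARPC4 ko (3.99 to 8.72) and 5.06-fold higher in Nrf2-EGFP (3.46 to 7.62), with a ratio between ARPC4 ko and Nrf2-EGFP of 1.15 (0.934 to 1.41). Apol9a and Apol9b, near-identical apolipoprotein L genes whose reads may be split, were 6.32-fold and 5.51-fold higher in ARPC4 ko and 6.03-fold and 7.41-fold higher in Nrf2-EGFP. The ISRE core was in 21 of the 41 promoters found for this list of 48 genes (51.2%).

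Markers of other cell types were read beside these values. Of 19 immune cell markers 9 were at 0 in every library, and the list summed to 14.5 CPM in ARPC4 ko, 11.5 CPM in Nrf2-EGFP and 8.63 CPM in wt, the order in which the interferon-stimulated genes ran. Ptprc, the pan-leukocyte marker, had 1 count in ARPC4 ko, 0 in Nrf2-EGFP and 1 in wt. Coro1a, an actin-binding protein of leukocytes, had 21 counts in ARPC4 ko, 6 in Nrf2-EGFP and 3 in wt. Csf1r, a macrophage growth factor receptor, had 22 counts in ARPC4 ko, 22 in Nrf2-EGFP and 4 in wt, so both genes were above wt in ARPC4 ko while under 1 CPM in every library. Cd79a and Cd74 had 2 and 2 counts in ARPC4 ko, 0 and 1 in Nrf2-EGFP and 3 and 3 in wt. Cd68 and Cd14 held most of the sum, and neither ran in its order. Cd68 had 6.17 CPM in ARPC4 ko, 4.71 in Nrf2-EGFP and 5.51 in wt. Cd14 had 4.40 CPM in ARPC4 ko, 4.91 in Nrf2-EGFP and 1.87 in wt, and Flt3 had 45 counts in ARPC4 ko, 17 in Nrf2-EGFP and 14 in wt. The 8 endothelial markers summed to 54.2 CPM in ARPC4 ko, 63.2 CPM in Nrf2-EGFP and 27.7 CPM in wt, nearly all of it Flt1. Fibroblast markers summed to 1.56, 2.50 and 1.07 CPM and melanocyte markers to 5.43, 2.21 and 3.47 CPM in ARPC4 ko, Nrf2-EGFP and wt. The 12 keratinocyte markers summed to the opposite order, with 14253 CPM in ARPC4 ko, 19066 CPM in Nrf2-EGFP and 24266 CPM in wt, led by Krt5 and Krt14. Krt5, Krt14 and Dsg3 were lower in ARPC4 ko than in wt (0.474, 0.440 and 0.464 times wt). Of the 11 measured keratinocyte markers 5 ran in the order of the sums (Krt5, Krt14, Dsg3, Perp and Cdh1), and 3 were above wt in ARPC4 ko, namely Epcam, Trp63 and Col17a1. Dsc3 was lowest in Nrf2-EGFP, with 329.5 CPM in ARPC4 ko, 280.6 in Nrf2-EGFP and 637.3 in wt. It was lower in Nrf2-EGFP than in wt (0.440 times wt). Epcam had 524 CPM in ARPC4 ko, 550.2 in Nrf2-EGFP and 340.6 in wt. The part of these differences in the levels of the interferon-stimulated genes was not tested.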

How the data were processed

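TRIzol was used to extract the RNA, and strand-specific mRNA libraries were read for 65 bases from 1 end, per the labels' protocols. The authors deposited 1 table of raw read counts by gene for each library. The submitters' processing notes name HTSeq, TopHat2 2.1.0, Bowtie 1.1 and the mm10 build. The sources used here do not state their settings, including strand, nor the annotation release. Non-gene entries (8.22% in ARPC4 ko, 8.48% in Nrf2-EGFP and 9.08% in wt) were left out of library sizes. Reads of near-identical genes are lost or split by such counting.

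Symbols came from GENCODE M21 and matched 40254 identifiers. Libraries were scaled with TMM in edgeR 4.0.16 (R 4.3.3), with factors of 1.06 in ARPC4 ko, 0.966 in Nrf2-EGFP and 0.981 in wt. RPKM used the summed exon length. Log2 folds were taken on CPM + 0.5, which understates differences of genes with few counts, while ratios carry no pseudocount. Intervals are exact Clopper-Pearson intervals of the ratio of counts, made with scipy 1.17.1. They cover counting error only, since these reads carry no molecular identifiers and may not be independent. A gene counted as higher or lower past a log2 fold of 1 with an interval excluding 1. There is 1 library per group, so nothing was tested between genotypes. The steps were tested on simulated data. DESeq2 1.42.0 size factors, total-count scaling, other filters and another pseudocount were tried as alternatives.

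The members and lists were chosen with earlier results of these data known. All 43 members could be named. Of each other list up to 6 measured genes with the largest log2 fold over wt were named, and of receptors and signalling genes all, except that a gene meeting this rule is not reported here. Irgm2, Krt15, Ptprc, Coro1a, Csf1r, Cd79a, Cd74 and the keratinocyte markers Cdh1, Trp63 and Col17a1 were named outside that rule, after their values were seen. Symbols Mb21d1, Gbp5 and Gbp6 were not matched.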

Additional observations from a re-analysis of the deposited data

How the results depend on the processing

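No paired analysis was possible because each genotype has 1 library, and for the same reason no library could be left out. The direction of the members' medians, and 0 members lower, held under every alternative tried. DESeq2 size factors changed no count of members. Scaling by total counts moved the median log2 fold of all genes by 0.10 in ARPC4 ko over wt and by 0.12 in ARPC4 ko over Nrf2-EGFP. The members' medians became 1.17 and 0.74, which is 1.08 and 0.63 above those of all genes. In ARPC4 ko over wt 20 members were higher, with Eif2ak2, Bst2 and Samd9l added, against 5.75% of all genes. Under that scaling the log2 folds of Adar in ARPC4 ko over wt (0.08), Ddx58 in Nrf2-EGFP over wt (0.00, against 0.02) and Tor3a in ARPC4 ko over Nrf2-EGFP (0.11) changed sign, and none of these was past the rule. Without a filter the medians were 0.90 in ARPC4 ko over wt and 0.50 in ARPC4 ko over Nrf2-EGFP. With a filter on the mean level, chosen after seeing the data, 15, 5 and 6 of 30 members were higher in ARPC4 ko over wt, Nrf2-EGFP over wt and ARPC4 ko over Nrf2-EGFP, against 4.38%, 3.46% and 1.65% of all genes.

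Results moved most with settings that weigh genes with few counts less. A filter of 10 CPM left 17 members, with 5 higher in ARPC4 ko over wt (median 0.73), 1 in Nrf2-EGFP over wt and 1 in ARPC4 ko over Nrf2-EGFP (median 0.20). A pseudocount of 2 CPM gave 9, 1 and 1 higher members and medians of 0.76, 0.28 and 0.47 in those comparisons. Counts over all genes fell likewise. Their median log2 fold in ARPC4 ko over wt was -0.04 with the filter, -0.01 with the pseudocount and -0.01 as reported. The 10 CPM filter kept 9318 genes. With it 253 were higher (2.72%) and 121 lower in ARPC4 ko over wt. The counts were 242 (2.60%) and 92 in Nrf2-EGFP over wt and 52 (0.558%) and 62 in ARPC4 ko over Nrf2-EGFP. With the pseudocount of 2 CPM they were 311 and 143, 258 and 104, and 80 and 67. As reported they were 558 and 244, 423 and 243, and 239 and 114. Depth limits the members with few counts most, and several of the largest ratios rest on 4 to 9 counts in wt.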
